A study of Mus musculus with 8 samples.

Results

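The inflammasome genes and their cytokines are a set of 9 mouse genes: the sensors Nlrp3, Nlrc4 and Aim2, the adaptor Pycard, the caspases Casp1 and Casp4, the pore-forming protein Gsdmd, and the cytokines Il1b and Il18. They were chosen by gene symbol, and all 9 of the 9 had at least 1 probe set that carried their symbol alone, among 22180 genes with such a probe set. Gsdmd had 2 such probe sets and the other genes had 1 each, so the 9 genes took 10 of the 41345 probe sets on the arrays. Where a gene had more than 1, the probe set with the highest mean over the 8 arrays stood for it.

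RNA was measured in CD11c+ dendritic cells grown from the bone marrow of female, wild-type C57BL/6 mice, in 4 experiments named BC, D2, E and I. The 4 SCF cultures received SCF, the stem cell factor that binds the receptor Kit, at 100 ng/ml for the last 6 hours, and the 4 medium cultures did not. All 8 cultures had been grown for 7 days at 21% oxygen with the growth factor GM-CSF at 20 ng/ml, purified on CD11c beads to 98%, and then held at 2% oxygen with GM-CSF for 2 days. Each experiment gave 1 SCF array and 1 medium array from the same cell preparation, so the arrays form 4 pairs. Where 4 values follow each other, they stand in the order of these names.

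An inflammasome is a protein complex that a myeloid cell assembles in its cytosol when a sensor meets a microbial product or a sign of damage. The adaptor ASC, encoded by Pycard, links the sensor to caspase 1, which then cuts the precursors of interleukin 1 beta and interleukin 18 and the pore protein gasdermin D. Transcription of Nlrp3 and Il1b is known to be raised beforehand by NF-kB signalling, a step called priming, whereas the cutting is a step between proteins. Arrays measure transcripts and not the activity of the complex.

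The labelled cell type was checked against marker genes. Of 8 dendritic cell markers 7 were matched, and all 7 lay above the intensity filter described next, as did 7 of 7 macrophage markers and 4 of 4 matched monocyte markers. Of 10 neutrophil markers 2 lay above it, Ly6g and Cxcr2, and S100a8 and S100a9 were among those below it. Above it also lay 1 of 7 mast cell markers, 0 of 3 matched B cell markers and 0 of 4 T and NK cell markers. None of the markers above the filter passed the test of SCF against medium given below, and those under the filter were not tested. No array was set aside. The 8 arrays had median linear intensities of 13.3 to 13.9, and the number of arrays limits the precision.

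Levels are given as log2 intensity, on which probe sets of different genes cannot be set against each other, because each probe set binds with its own strength. A filter at a mean of 4.05 over the 8 arrays, the median of the probe sets with a gene name, kept 12668 probe sets for testing. Of the 9 genes 8 passed it. Il1b did not, with a mean of 3.94, and Nlrc4 (4.12) and Il18 (4.09) stood just above it. The measured differences of these 3 genes therefore come from dim probe sets.

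The comparison of SCF with medium addressed the effect of 6 hours of SCF on these genes under hypoxia. With experiment as a block in limma, 0 of the 8 tested genes reached an adjusted p below 0.05 (their values ran from 0.945 to 0.998), and 0% of the 12668 probe sets did. No gene of the set reached an unadjusted p of 0.05 either, with 0.108 for Nlrp3 as the lowest, against 533 probe sets, or 4.21%, in the whole table. The arrays of the 2 groups overlapped for all 9 genes, and did not overlap for 0.971% of the probe sets tested. Of the genes, 6 had a mean difference below 0 and 3 above 0, while 49.5% of the probe sets tested lay below 0. The median difference was −0.019 over the 8 tested genes and −0.020 with Il1b added, beside 0.00077 over all probe sets tested. In RNA from whole cultures, fewer cells of a type and less RNA per cell cannot be told apart.

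**Figure D1:**
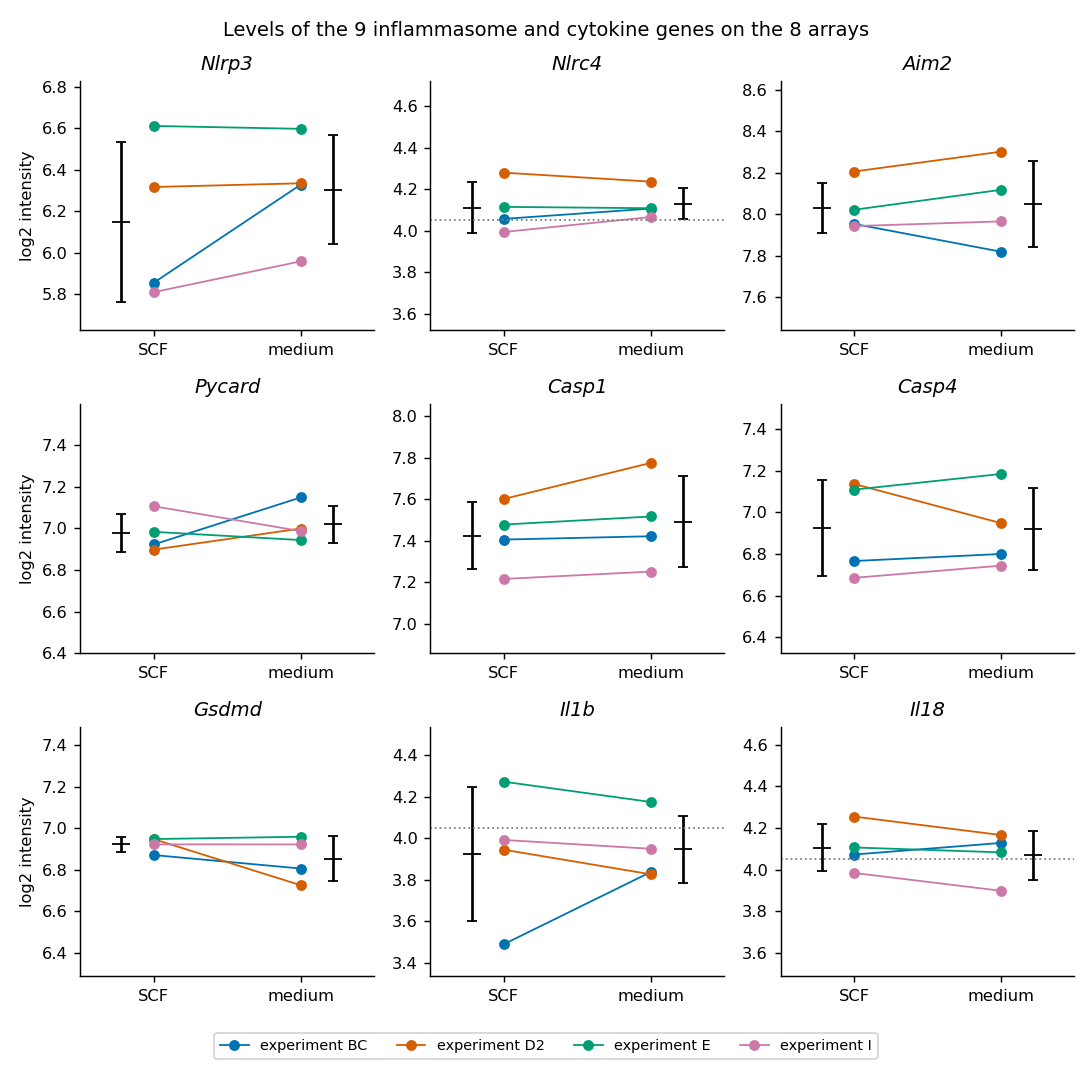
Log2 intensity of each gene (vertical axis) in SCF and medium cultures, with a line joining the 2 arrays of an experiment. Each panel spans the same height, black marks give the mean ± SD of 4 arrays, and the dotted line is the filter at 4.05. The SCF and medium points overlap for all 9 genes, and the largest difference within an experiment is that of Nlrp3 in BC (−0.47).

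Nlrp3, the sensor of ATP, crystals and many other danger signals, had the largest fitted difference of the set. It measured 5.86, 6.32, 6.61 and 5.81 with SCF, against 6.33, 6.33, 6.60 and 5.96 in medium. The widest gap between partner arrays was in BC, at a difference of −0.47, whereas D2 and E differed by −0.018 and 0.014 and I by −0.15. The means were 6.15 ± 0.38 with SCF and 6.30 ± 0.26 in medium (SD, n = 4 each), a log2 difference of −0.16 (SE 0.085, 95% interval −0.36 to 0.04, limma adjusted p = 0.945), or 0.897-fold. Without experiment BC the difference was −0.051.

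Nlrc4, which forms an inflammasome with NAIP proteins that bind bacterial flagellin, was dim in every culture. Its log2 intensity was 4.06, 4.28, 4.11 and 3.99 with SCF, against 4.11, 4.24, 4.11 and 4.07 in medium. The 8 arrays thus stayed within a narrow band around the filter, with D2 highest in both groups. The log2 difference was −0.018 (SE 0.051, 95% interval −0.14 to 0.10), with 2 experiments on each side of 0.

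Aim2, the sensor of double-stranded DNA in the cytosol, measured 7.95, 8.21, 8.02 and 7.94 with SCF, against 7.82, 8.30, 8.12 and 7.97 in medium. D2 was again the highest experiment in both groups. Aim2 was lower with SCF in D2, E and I and higher in BC by 0.13, which gave a log2 difference of −0.020 (SE 0.059, 95% interval −0.16 to 0.12).

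Pycard, the adaptor, held the steadiest level of the set between experiments, whose means spanned 0.098 on the log2 scale. It measured 6.92, 6.90, 6.98 and 7.11 with SCF, against 7.15, 7.00, 6.94 and 6.99 in medium. The experiments did not go the same way, with differences of −0.23 in BC and −0.10 in D2 but 0.040 in E and 0.12 in I. The log2 difference was −0.042 (SE 0.068, 95% interval −0.20 to 0.12), and it was 0.019 without BC.

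Casp1, the protease that cuts the cytokine precursors, was the 1 gene of the 9 that lay lower with SCF in 4 of 4 experiments, as did 6.44% of the probe sets tested. It measured 7.41, 7.60, 7.48 and 7.22 with SCF, against 7.42, 7.78, 7.52 and 7.25 in medium. Its difference was −0.17 in D2 and between −0.039 and −0.016 in the other experiments, so D2 set most of its size. The log2 difference was −0.066 (SE 0.053, 95% interval −0.19 to 0.06, limma adjusted p = 0.945), or −0.030 without D2. Casp1 stayed lower in 4 of 4 experiments with the array medians equalized and after a repeated quantile normalization. Equalizing put 60.5% of all probe sets tested below 0, and Nlrp3 was then lower in 4 of 4 as well. After quantile normalization, and as deposited, Nlrp3 was lower in 3 of 4.

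Casp4 encodes mouse caspase 11, which binds bacterial lipopolysaccharide in the cytosol and cuts gasdermin D without a sensor of the Nlrp3 kind. It measured 6.77, 7.14, 7.11 and 6.69 with SCF, against 6.80, 6.95, 7.18 and 6.74 in medium. Experiment D2 stood apart here too, but upward, by 0.19, where the other 3 lay between −0.075 and −0.034. The log2 difference over the 4 was 0.0051 (SE 0.062, 95% interval −0.14 to 0.15), and it was −0.056 without D2. In D2 the difference of Casp4 was thus opposite in sign to that of Casp1, a contrast with no test.

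Gsdmd encodes gasdermin D, whose cut fragment opens pores in the cell membrane through which interleukin 1 beta leaves. Its brighter probe set measured 6.87, 6.95, 6.95 and 6.92 with SCF, against 6.81, 6.73, 6.96 and 6.92 in medium. The SCF arrays lay close together and the medium arrays less so, at 6.92 ± 0.036 with SCF and 6.85 ± 0.11 in medium (SD, n = 4 each). The log2 difference of 0.069 (SE 0.059, 95% interval −0.069 to 0.21) came mainly from D2, at 0.22, and was 0.018 without D2. The dimmer probe set of the gene differed by −0.0012 (SE 0.058), with −0.070, 0.013, 0.14 and −0.084 by experiment, and so did not follow the brighter one experiment by experiment.

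Il1b, the gene of the principal inflammasome cytokine, lay below the filter. It measured 3.49, 3.94, 4.27 and 3.99 with SCF, against 3.84, 3.83, 4.17 and 3.95 in medium. Only the arrays of experiment E lay above 4.05. Il1b was higher with SCF in D2, E and I, by 0.043 to 0.12, and lower in BC by −0.35, for a log2 difference of −0.022 (SE 0.084, 95% interval −0.22 to 0.17, limma adjusted p = 1.00 in a fit of all 25335 probe sets with a gene name). Without BC the difference was 0.086.

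Il18, the other cytokine whose precursor caspase 1 cuts, measured 4.07, 4.25, 4.11 and 3.98 with SCF, against 4.13, 4.17, 4.08 and 3.90 in medium. It was higher with SCF in 3 of 4 experiments, by 0.024 to 0.089, and the arrays of both groups covered nearly the same range. The log2 difference was 0.036 (SE 0.053, 95% interval −0.088 to 0.16, limma adjusted p = 0.964). It was 0.066 without BC, 0.018 without D2 and 0.019 without I, and 0.016 with the array medians equalized and 0.0085 after quantile normalization.

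The 95% intervals describe the mean difference in measured intensity and do not bound every possible change in RNA. For all 9 genes the 95% interval lay within 1.5-fold in both directions, as it did for 99.7% of the probe sets tested. The widest on the lower side was that of Nlrp3, which ran from 0.781-fold to 1.03-fold. These intervals are not adjusted for the number of genes, and that of Il1b came from the fit without a filter. For the dim probe sets of Il1b, Nlrc4 and Il18 signal over background is unknown. Their intervals therefore do not limit the change in RNA. In experiment BC 7 of the 9 genes lay below 0, whereas 4 did in D2, 4 in E and 5 in I. The shares below 0 over all probe sets tested were 52.1%, 48.7%, 49.8% and 48.3% by experiment.

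**Figure D2:**
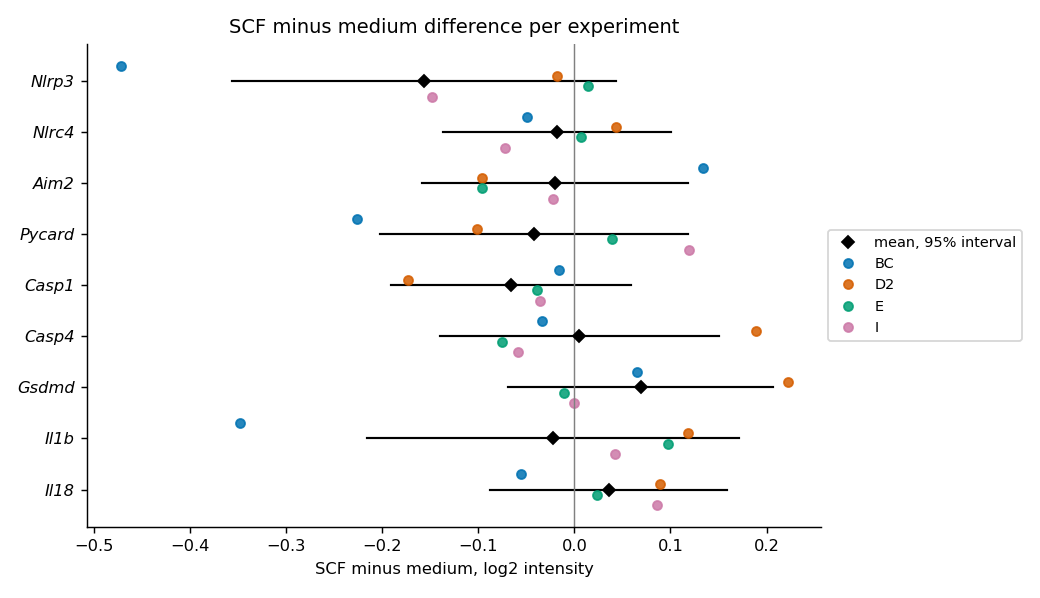
SCF minus medium difference in log2 intensity (horizontal axis) for each gene, with 1 coloured point per experiment and a black diamond and line for the fitted mean and its 95% interval. Every interval crosses 0, and 1 experiment lies far from the other 3 for Il1b (BC, −0.35), Casp1 (D2, −0.17) and Casp4 (D2, 0.19).

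The same fit was used to ask how far the genes differed between the 4 experiments, whatever the treatment. For all 9 genes the experiment means spanned more than the size of the SCF difference. How many of all probe sets tested did so was not counted, so this does not set the 9 genes apart. In limma's F test of the experiments 0 of the 8 tested genes had an adjusted p below 0.05, which 424 probe sets, or 3.35%, had. At an unadjusted p under 0.05 there were 5 of the 8, namely Nlrp3, Casp1, Casp4, Aim2 and Il18, beside 24.2% of the probe sets tested. The median SD of the experiment means was 0.136 over the 8 genes and 0.0915 over all probe sets tested.

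Nlrp3 ranged most between experiments, with experiment means of 6.09, 6.33, 6.60 and 5.89, a range of 1.65-fold (limma F test, adjusted p = 0.0601). It passed with a stricter filter (adjusted p = 0.0380), with array medians equalized (0.0444), with a variance trend (0.0140) and without BC (0.0349). It did not pass with no filter (0.0925), after quantile normalization (0.0644), or without D2 (0.0878), E (0.176) or I (0.157). Casp1 was highest in D2 (7.69) and lowest in I (7.23), a range of 1.37-fold (adjusted p = 0.0635). Both of its arrays in D2 lay above all 6 arrays of the other experiments, and both of its arrays in I below them. Casp4 was highest in E (7.15), followed by D2 (7.04), and lay at 6.78 in BC and 6.71 in I, a range of 1.35-fold (adjusted p = 0.0732). Casp1 and Casp4 passed with the stricter filter (adjusted p = 0.0381 and 0.0452) and with the variance trend (0.0143 and 0.0226). Under the other alternatives neither passed, with adjusted p from 0.0524 to 0.201 for Casp1 and from 0.0620 to 0.176 for Casp4.

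Aim2 was highest in D2 (8.25) and lowest in BC (7.89), a range of 1.29-fold (limma F test, adjusted p = 0.112), and passed with the variance trend (0.0298) but under no other alternative (0.0736 to 0.433). Il1b was highest in E (4.22) and lowest in BC (3.66), a range of 1.47-fold, with an adjusted p of 0.181 in the fit without a filter. The experiments did not share 1 order. I was the lowest experiment for Nlrp3, Nlrc4, Casp1, Casp4 and Il18, and BC for Aim2 and Il1b. E was the highest for Nlrp3, Casp4, Gsdmd and Il1b, and D2 for Nlrc4, Aim2, Casp1 and Il18.

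**Figure D3:**
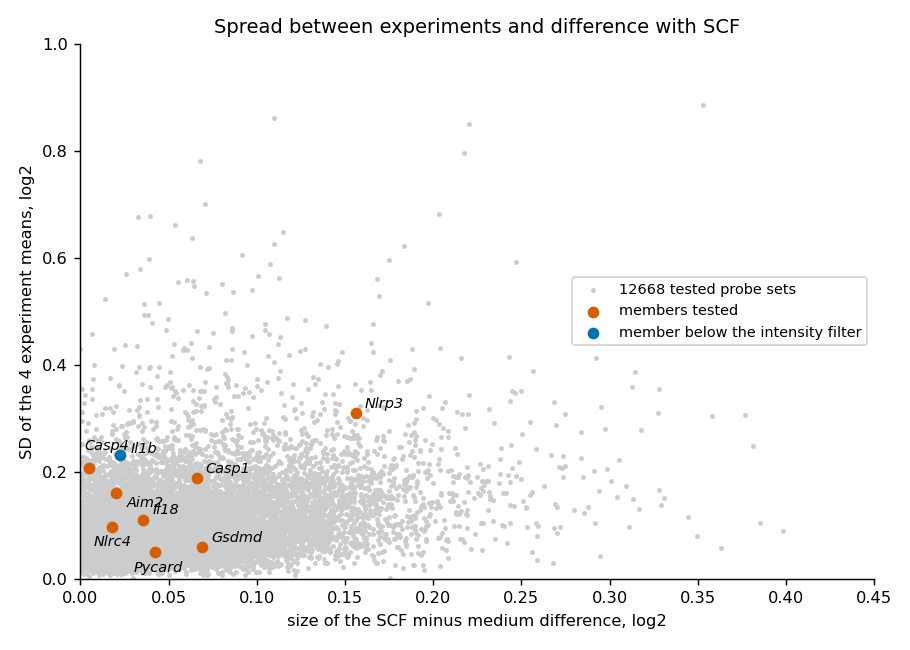
Size of the SCF minus medium difference (horizontal axis, log2) against the SD of the 4 experiment means (vertical axis, log2). Grey points are the 12668 tested probe sets (1 lies outside the range shown), orange points the 8 tested genes and the blue point Il1b. Among the 9 genes Nlrp3 has the highest value on both axes, and Pycard and Gsdmd have the smallest spread between experiments.

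Marker genes were put to the same test between experiments, which 0 of the 7 dendritic cell markers passed. Of the 4 monocyte markers matched, Ly6c2 (limma F test, adjusted p = 0.0149), Ccr2 (0.0242) and F13a1 (0.0408) passed, and of 7 macrophage markers Fcgr1 (0.0360) and C1qb (0.0428) did. Of 7 mast cell markers Cpa3 did, the only 1 above the filter. The monocyte markers did not share 1 order. Ccr2 had experiment means of 5.29, 5.88, 6.38 and 5.33, with E highest as for Nlrp3. Ly6c2 had 5.66, 6.43, 6.96 and 7.01, with I highest, where Nlrp3 was lowest, and F13a1 had 6.82, 7.48, 7.12 and 6.70, with D2 highest. Of the macrophage markers, Fcgr1 had 7.93, 8.25, 8.70 and 7.69, the same order of experiments as Nlrp3. C1qb had 7.32, 7.27, 7.95 and 7.23, with E highest, and Cpa3 had 5.02, 4.01, 4.34 and 4.82, with BC highest. The macrophage markers did not share 1 order either. Among those that did not pass, Csf1r had the order of Nlrp3, while Mrc1 was highest in I, where Nlrp3 was lowest. Mertk was lowest in BC, and Adgre1 and C1qa were lowest in D2. By experiment the 7 macrophage markers summed to a linear intensity of 1325, 1564, 1870 and 1364 with SCF. In medium they summed to 1608, 1459, 1893 and 1428. The macrophage sum was thus lower with SCF in BC, E and I and higher in D2. Nlrp3 was lower with SCF in BC, D2 and I, and Il1b in BC alone. The sum of the 4 monocyte markers by experiment was 200.1, 360.2, 354.0 and 305.7 with SCF, against 262.5, 345.8, 400.1 and 299.5 in medium. It was thus lower with SCF in BC, where Nlrp3 and Il1b were lower, and in E, where both were slightly higher. In D2 and I the monocyte sum was higher with SCF, as was Il1b, while Nlrp3 was lower. The part of these cells in the differences of the inflammasome genes was not tested.

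Promoters are shown for the 3 genes that ranged most between experiments relative to their error, and for Il1b as the gene of the principal inflammasome cytokine. RefSeq sequences (GRCm38.p6) covered 8 of the 9 genes in 10 windows, and the 250 bases before a start are printed, 5′ to 3′ along the gene's strand. The windows lie at chr11:59541319-59541568 (plus strand) and chr11:59542436-59542685 (plus strand) for 2 starts of Nlrp3, at chr9:5298267-5298516 (plus strand) for Casp1, at chr9:5308599-5308848 (plus strand) for the first of 2 overlapping windows of Casp4 and at chr2:129371140-129371389 (minus strand) for Il1b. Capitals mark matches, on either strand, to 4 motifs. The TATA box was searched as TATAAA. An NF-kB site was searched as 3 G, any 2 bases, 3 T and 2 C, and an interferon-stimulated response element as G and 3 A, any 2 bases, and G and 3 A again. The core of a hypoxia response element was searched as ACGTG.
Nlrp3, first start: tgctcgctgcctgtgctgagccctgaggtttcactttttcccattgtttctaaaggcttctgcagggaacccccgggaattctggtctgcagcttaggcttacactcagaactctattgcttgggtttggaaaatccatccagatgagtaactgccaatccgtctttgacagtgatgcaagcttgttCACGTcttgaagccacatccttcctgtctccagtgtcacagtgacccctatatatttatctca
Nlrp3, second start: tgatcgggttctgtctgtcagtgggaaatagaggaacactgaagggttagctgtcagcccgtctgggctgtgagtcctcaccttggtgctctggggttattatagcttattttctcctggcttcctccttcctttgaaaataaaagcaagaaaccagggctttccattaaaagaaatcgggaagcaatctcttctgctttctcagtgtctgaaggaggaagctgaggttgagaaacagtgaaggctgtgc
Casp1: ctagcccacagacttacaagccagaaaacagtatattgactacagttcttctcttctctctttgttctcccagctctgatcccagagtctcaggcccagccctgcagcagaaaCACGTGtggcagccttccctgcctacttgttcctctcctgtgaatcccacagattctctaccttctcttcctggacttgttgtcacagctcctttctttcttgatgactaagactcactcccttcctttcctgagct
Casp4: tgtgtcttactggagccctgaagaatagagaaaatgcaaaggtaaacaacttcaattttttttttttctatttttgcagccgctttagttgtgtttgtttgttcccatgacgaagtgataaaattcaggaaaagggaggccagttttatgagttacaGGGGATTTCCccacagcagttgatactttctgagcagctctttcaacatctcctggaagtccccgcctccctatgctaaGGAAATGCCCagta
Il1b: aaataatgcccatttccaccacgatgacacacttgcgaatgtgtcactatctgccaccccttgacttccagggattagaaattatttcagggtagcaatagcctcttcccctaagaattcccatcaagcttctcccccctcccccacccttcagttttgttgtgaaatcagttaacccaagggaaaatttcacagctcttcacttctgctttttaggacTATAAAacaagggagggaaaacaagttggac

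In these windows Casp4 held 2 matches to the NF-kB letters, at positions −93 and −14 (counted from −1, the base just before the start), where 1.41% of 32851 windows of the same length held at least 1. Casp1 held 2 overlapping matches to the hypoxia core, 1 on each strand, and the first Nlrp3 window held 1, where 16.6% of the windows did. Il1b held a TATA box at position −31, and 12.4% of the windows held 1. The interferon letters, present in 2.98% of the windows, matched in none of the windows of these genes. A match is a string of letters and not a measured binding site.

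By their profiles over the 8 arrays, the genes nearest to Nlrp3 were Clec5a, a myeloid lectin receptor gene, F7, the gene of coagulation factor VII, and Plk3, a polo-like kinase gene. Their gene-centred log2 values differed from those of Nlrp3 by a root mean square of 0.0706, 0.0726 and 0.0813, where Nlrp3 itself had a spread of 0.295, among 11350 genes compared. The genes nearest to Il1b were Serpinb8, a serine protease inhibitor gene (0.0506), Slc2a1, the glucose transporter gene (0.0631), and Cd68, a gene of macrophage lysosomes (0.0690), against a spread of 0.222 of Il1b among 11351 genes. Like Il1b, Serpinb8 was lowest in the SCF array of BC (5.25, against 5.58 in medium) and highest in E (5.89 with SCF, against 5.95 in medium). The arrays share cell preparations in pairs, so these are descriptions with no test.

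Other genes of the pathway were taken in 4 lists, of which 53 genes were tested and 0 passed the SCF comparison in either direction (limma, lowest adjusted p = 0.945). At an unadjusted p under 0.05 there were 5, where 4.21% of all probe sets tested were. Of the 53, 35 lay below 0, where 49.5% of all probe sets tested did, with a median of −0.018 beside 0.00077 over all probe sets tested. Equalizing the array medians moved the median of all probe sets tested to −0.018 and put 60.5% of them below 0. The list genes below 0 then numbered 6 of 8 sensors, 17 of 23 regulators, 8 of 10 executioners and 10 of 12 genes of the interleukin 1 family, against 5, 14, 6 and 10 as deposited. Between experiments 8 of the 53 passed, against 3.35% of all probe sets tested.

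Among 8 other sensors 3 lay above 0 and 5 below, with a median of −0.040. Ifi204, a DNA-binding member of the p200 family, had the largest difference, at a log2 intensity of 6.18 ± 0.94 with SCF and 6.54 ± 0.84 in medium (SD, n = 4 each). All 4 differences lay below 0, at −0.70, −0.19, −0.34 and −0.18 by experiment, for a log2 difference of −0.35 (SE 0.091, limma adjusted p = 0.945). Ifi204 also differed between experiments (limma F test, adjusted p = 0.00537). Nod2, the muramyl dipeptide receptor gene, was at 0.15 (SE 0.062) and Naip5, which partners Nlrc4, at 0.077 (SE 0.059), each higher in 3 of 4 experiments. Naip5 was at 0.041 without D2 and 0.12 without I.

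Of 23 genes of activation and regulation 9 lay above 0 and 14 below, with a median of −0.017. Ptpn22, a phosphatase gene, was at −0.19 (SE 0.075) and below 0 in 4 of 4 experiments, or −0.10 without BC. Serpinb1a, an inhibitor of neutrophil proteases and of caspase activation, was at 0.20 (SE 0.075), and Gbp7, an interferon-induced guanylate-binding protein gene, at −0.18 (SE 0.082), or −0.11 without BC and −0.27 without D2. Ptpn22 and Serpinb1a differed between experiments (limma F test, adjusted p = 0.0282 and 0.0342).

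Of 10 executioner genes 4 lay above 0 and 6 below, with a median of −0.0068. Mlkl, the pore-forming protein gene of necroptosis, was at −0.19 (SE 0.093), or −0.088 without BC. Casp6, an apoptotic caspase gene, was at 0.042 (SE 0.053), or 0.017 without BC and 0.070 without D2. Ninj1, whose product ruptures the membrane of dying cells, was at 0.023 (SE 0.051). Leaving out BC gave 0.048 for Ninj1, and leaving out I gave 0.0098. Of 12 ligands and receptors of the interleukin 1 family 2 lay above 0 and 10 below, with a median of −0.075. Il1f9, which encodes IL-36 gamma, was at −0.19 (SE 0.088), or −0.29 without I, and Il18rap, a chain of the interleukin 18 receptor, at 0.12 (SE 0.071), or 0.18 without BC and 0.051 without D2. Il1a, whose product signals without the caspase cut, was at −0.25 (SE 0.096) and at −0.14 without BC. None of these passed (adjusted p = 0.945 for Mlkl, Il1f9, Il18rap and Il1a, 0.960 for Casp6 and 0.978 for Ninj1, all limma).

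**Figure D4:**
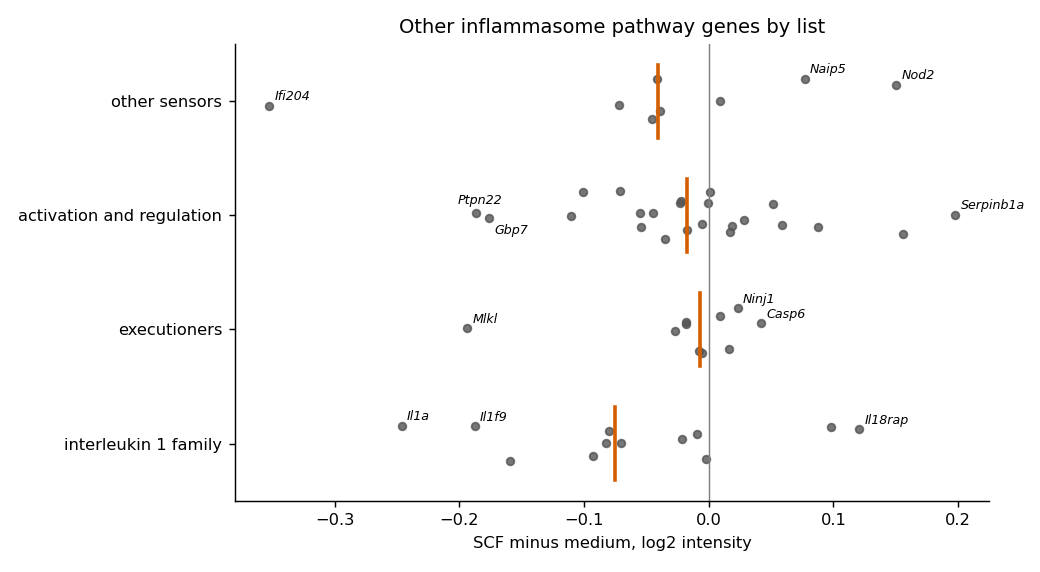
SCF minus medium difference in log2 intensity (horizontal axis) of the tested genes of 4 lists, 1 grey point per gene with the named genes labelled, spread vertically only for legibility. The orange bar is the median of a list, and the medians lie between −0.075 for the interleukin 1 family and −0.0068 for the executioners.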

How the data were processed

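RNA of 8 cultures was read on 1-colour Affymetrix arrays, 1 array per culture. The authors deposited a table with an intensity for each probe set, for which the submitters' processing notes name RMA, and the values showed a linear scale with maxima between 3588 and 4252. No source used here gives the RMA version or a filter. Log2 was taken with no pseudocount or further normalization. Of 41345 probe sets, 23521 had 1 gene symbol in the platform annotation and 1814 several; the rest were not named here. The table has no detection call, so signal over background is unknown, and probe sets with a symbol were tested where their mean reached the median of such means.

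The SCF comparison used limma 3.58.1 (lmFit, eBayes; R 4.3.3), two-sided, with experiment as a fixed block, and p-values were adjusted after Benjamini-Hochberg across all tested probe sets. The F test of the 3 experiment coefficients came from the same fit, with 3 residual degrees of freedom and 7.39 after moderation. The pairing comes from the series' design text, and deviations from the group means correlated at 0.36 to 0.46 within experiments. The fit was tested on simulated data. The 9 genes were named whatever their values, with the 3 smallest unadjusted p-values of each list, the 3 nearest profiles to Nlrp3 and Il1b, and any gene with an outlying array. The members and lists were chosen with earlier results of these data known. Of 80 list symbols, 15 added no gene, some because they are second names of genes analysed, such as Il36g for Il1f9. Symbols without a probe set of their own under any listed name were not analysed here, and no coordinates were taken for probe sets. Alternatives were no filter, a stricter filter, equalized array medians, repeated quantile normalization, a variance trend, no block, a random block, the mean of a gene's probe sets and leaving out each experiment.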

Additional observations from a re-analysis of the deposited data

Results flagged for a closer look

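Of 27 sets of 4 values examined (the SCF arrays, the medium arrays and the SCF minus medium differences of the 9 genes), 3 held a value far from the other 3, by Dixon's criterion at 95%. Chance gives such a value in about 1 in 20 sets. All 3 were differences and none were levels. The Casp1 difference in D2 was −0.173, where the other experiments lay between −0.039 and −0.016. The Casp4 difference in D2 was 0.189, where the others lay between −0.075 and −0.034. The Il1b difference in BC was −0.347, where the others lay between 0.043 and 0.12.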

How the results depend on the processing

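The count of probe sets past the threshold for SCF was 0 in every fit, including the fit with no replicate block (0) and the fit with experiment as a random block (0), with 125 to 856 probe sets at an unadjusted p under 0.05. Of 96 values of the 9 genes under the alternatives 0 passed, with 0.833 as the lowest adjusted p, and 89 kept their direction. With the array medians equalized, which moved the median of all probe sets tested to −0.018, Casp4 was at −0.014. Leaving out 1 experiment turned 5 genes, whose differences then ranged from −0.038 to 0.000045 for Nlrc4, −0.071 to 0.0052 for Aim2, −0.096 to 0.019 for Pycard, −0.056 to 0.032 for Casp4 and −0.069 to 0.086 for Il1b. Under the stricter filter Nlrc4, Il18 and Il1b were not tested. The count of probe sets that differed between experiments moved from 424 to 194 with no filter, 762 with the stricter filter and 1527 with the variance trend, and to between 38 (without E) and 177 (without I) with 1 experiment left out, when fewer arrays entered the fit. The cause of the other moves was not tested. The fits without the block have no experiment term to test. Signal over background is unknown, which limits what the dim probe sets of Il1b, Il18 and Nlrc4 can show.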
